A study of Mus musculus with 6 samples.

Results

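Genes of glycolysis and of the hypoxia response were followed in blood stem and early progenitor cells that had lost Asxl2. The 37 genes were taken by symbol from a list, out of 24063 symbols in the count data, and comprised 2 glucose transporters, 17 enzymes from hexokinase to pyruvate kinase, 2 lactate dehydrogenase subunits, 2 monocarboxylate transporters, 4 bifunctional PFKFB enzymes, 4 pyruvate dehydrogenase kinases, 1 subunit of pyruvate dehydrogenase, and 5 genes of the hypoxia-inducible factor (HIF) system. Each group held 3 libraries of LSK cells, the bone-marrow cells that lack lineage markers and carry Sca-1 and c-Kit. Mice of both groups were on the C57BL/6 strain, carried the Mx1-cre transgene and had been injected with pIpC, a synthetic double-stranded RNA that switches on the interferon-responsive Mx1 promoter. The knockout group was Asxl2-/-, in which Cre removes exon 11 of a conditional allele, and the control group was wild type for Asxl2. Mx1-cre is known to act in many interferon-responsive cells and not in LSK cells alone. Age and sex are not given by the labels.

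Glycolysis splits glucose into pyruvate, and lactate dehydrogenase then interconverts pyruvate and lactate, which leaves or enters the cell through monocarboxylate transporters. The pyruvate dehydrogenase complex instead commits pyruvate to the mitochondria, and its kinases switch it off. When oxygen is short the prolyl hydroxylases that mark HIF1A for destruction slow down, and the stabilised factor raises many glycolytic genes. Blood stem cells reside in a poorly oxygenated marrow and are known for relying on glycolysis more than their dividing progeny do.

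The sequences upstream of 4 genes are printed because Slc16a3 and Vegfa were the members past the test threshold (adjusted p under 0.05, edgeR), and Ldha and Slc16a1 were the lactate dehydrogenase and lactate transporter with the higher levels. Each is the 250 bases before a transcription start, that of the transcript whose first exon had the most counts per base, 5′ to 3′ on the strand of the gene, from RefSeq on GRCm38.p6, the assembly behind mm10. For Slc16a3 (NM_001038653) and Ldha (NM_010699) this is not the longest transcript, the one used for the counts. The letters searched were ACGTG and GCGTG, the core letters of the HIF binding motif, on both strands, so that CACGT and CACGC also count, and capitals mark every match. In CACGTG the matches of both strands overlap and count as 2.
Slc16a3, chr11:120948817-120949066, plus strand: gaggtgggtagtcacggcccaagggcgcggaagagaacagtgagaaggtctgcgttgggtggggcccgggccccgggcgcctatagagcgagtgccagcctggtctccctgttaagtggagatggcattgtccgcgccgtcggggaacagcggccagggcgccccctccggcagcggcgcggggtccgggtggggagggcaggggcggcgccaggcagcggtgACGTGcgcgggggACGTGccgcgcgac
Vegfa, chr17:46032378-46032627, minus strand: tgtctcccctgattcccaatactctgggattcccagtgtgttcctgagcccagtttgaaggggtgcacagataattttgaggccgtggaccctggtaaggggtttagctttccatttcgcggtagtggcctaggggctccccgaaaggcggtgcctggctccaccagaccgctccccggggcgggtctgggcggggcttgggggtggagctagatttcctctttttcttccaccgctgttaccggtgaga
Ldha, chr7:46845554-46845803, plus strand: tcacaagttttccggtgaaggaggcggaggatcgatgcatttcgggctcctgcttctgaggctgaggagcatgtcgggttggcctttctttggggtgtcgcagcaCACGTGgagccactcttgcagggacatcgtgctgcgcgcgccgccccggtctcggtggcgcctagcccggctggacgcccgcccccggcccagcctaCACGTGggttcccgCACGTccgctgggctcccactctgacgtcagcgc
Slc16a1, chr3:104638414-104638663, plus strand: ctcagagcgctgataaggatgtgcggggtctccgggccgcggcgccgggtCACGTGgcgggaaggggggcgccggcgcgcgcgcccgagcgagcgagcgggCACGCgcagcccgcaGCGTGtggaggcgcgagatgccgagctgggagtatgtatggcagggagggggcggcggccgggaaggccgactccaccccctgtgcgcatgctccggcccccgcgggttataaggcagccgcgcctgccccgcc
The Slc16a3 window held 2 matches, the Vegfa window 0, the Ldha window 5 and the Slc16a1 window 4. Of the 36 members with an entry (none for Slc2a3), 30 (83.3%) held at least 1 match in this window, against 56.2% of the 10412 tested genes with an entry and 44.8% of all 16816 symbols in the table. Bnip3 also held 5 matches and Pdk3 4, while Hif1a, Hk1, Pfkp, Pgam1 and Pdha1 held 3 each, and besides Vegfa the members without a match were Gpi1, Tpi1, Eno2, Pkm and Pfkfb1. A match is a run of letters and not a binding site, and its absence says only that the letters are not in this window.

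Depth, the targeted gene and the makeup of the libraries were examined first. Counts on genes totalled 25528540 to 29136012 in 3 libraries that were deposited as counts per transcript (Asxl2-/- replicates 1 and 3, control replicate 2), called gene-count libraries, and 53147729 to 55032075 in 3 deposited as counts per exon (Asxl2-/- replicate 2, control replicates 1 and 3), called exon-count libraries, in which a spliced read can count more than once. The kind of file was a covariate in the edgeR test reported here. Exon 11 took 0.583% of the Asxl2 exon counts in Asxl2-/- replicate 2 (28 of 4804, 95% Wilson interval 0.404 to 0.841) against 10.3% and 11.99% in control replicates 1 and 3. Asxl2-/- replicates 1 and 3 have no exon counts, so the loss of exon 11 could not be checked there. The total count of Asxl2 did not differ detectably (log2 fold change 0.11, adjusted p = 0.469 by edgeR). Xist was high in all 3 knockout libraries and 4 Y-linked genes had at most 2 counts there against 1026 to 4807 in the controls, so genotype and sex cannot be told apart in any value below. The sort markers Kit (280 to 431 CPM, that is, reads scaled to the same library total) and Ly6a, which encodes Sca-1 (40.5 to 260 CPM), were present in every library. Summed CPM of marker lists was higher in all Asxl2-/- libraries for stem cells (188 to 223 against 71.7 to 131, 3 of 7 markers past the threshold) and B cells (144 to 157 against 38.4 to 55.9, 6 of 8), lower for erythroid cells (491 to 692 against 959 to 1375, 0 of 9), and overlapped for megakaryocytes (315 to 820 against 158 to 352, 4 of 7), neutrophils and monocytes (2630 to 6825 against 2654 to 8313, 0 of 9), LSK (1252 to 1575 against 1178 to 1333, 0 of 5), endothelial cells (91.1 to 123 against 75.0 to 100.2, 0 of 5), T and NK cells (113 to 167 against 125 to 157, 0 of 6) and cycling cells (4118 to 4570 against 4206 to 4782, 0 of 10). The megakaryocyte sums overlapped only across kinds of file. They were 372 and 315 against 158 in gene-count libraries and 820 against 352 and 222 in exon-count libraries. All 7 megakaryocyte markers lay above the controls in both kinds, against 25.4% of all genes. Of the 9 erythroid markers, 5 lay below and 0 above, against 23.3% and 25.4%. Tfrc was the largest part of the erythroid sum (258, 255 and 359 CPM against 474, 630 and 732). Hbb-b1, Alas2 and Hba-a1 changed sign between the kinds (1.14, 1.08 and 0.99 in gene-count, -1.09, -1.23 and -1.63 in exon-count libraries, log2 fold change). No marker was at 0 in all 6 libraries, and the part of these shifts in the results below was not tested.

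The comparison asked which of the 37 genes had a different abundance after loss of Asxl2. All 37 passed the filter on low counts, and 2 were past the threshold, both raised: Slc16a3, the lactate exporter MCT4, by 2.87-fold, and Vegfa, the vascular growth factor and classic HIF target, by 1.73-fold. Among all 14145 genes tested, 331 were past the threshold (2.34%), 288 raised (2.04%) and 43 lowered (0.304%); the members' share was 5.41%. At an unadjusted p under 0.05 there were 11 members (29.7%), 8 with higher and 3 with lower values in Asxl2-/- cells, against 27.7% of all genes (15.0% higher, 12.6% lower). The median log2 fold change of the members was 0.012 and the median size 0.25, against 0.00052 and 0.24 over all genes. Asxl2-/- libraries lay above the controls in both kinds of file for 10 members (27.0%) and below them for 6 (16.2%), against 25.4% and 23.3% of all genes. In bulk RNA, fewer cells of a type and less RNA per cell cannot be told apart.

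**Figure D1:**
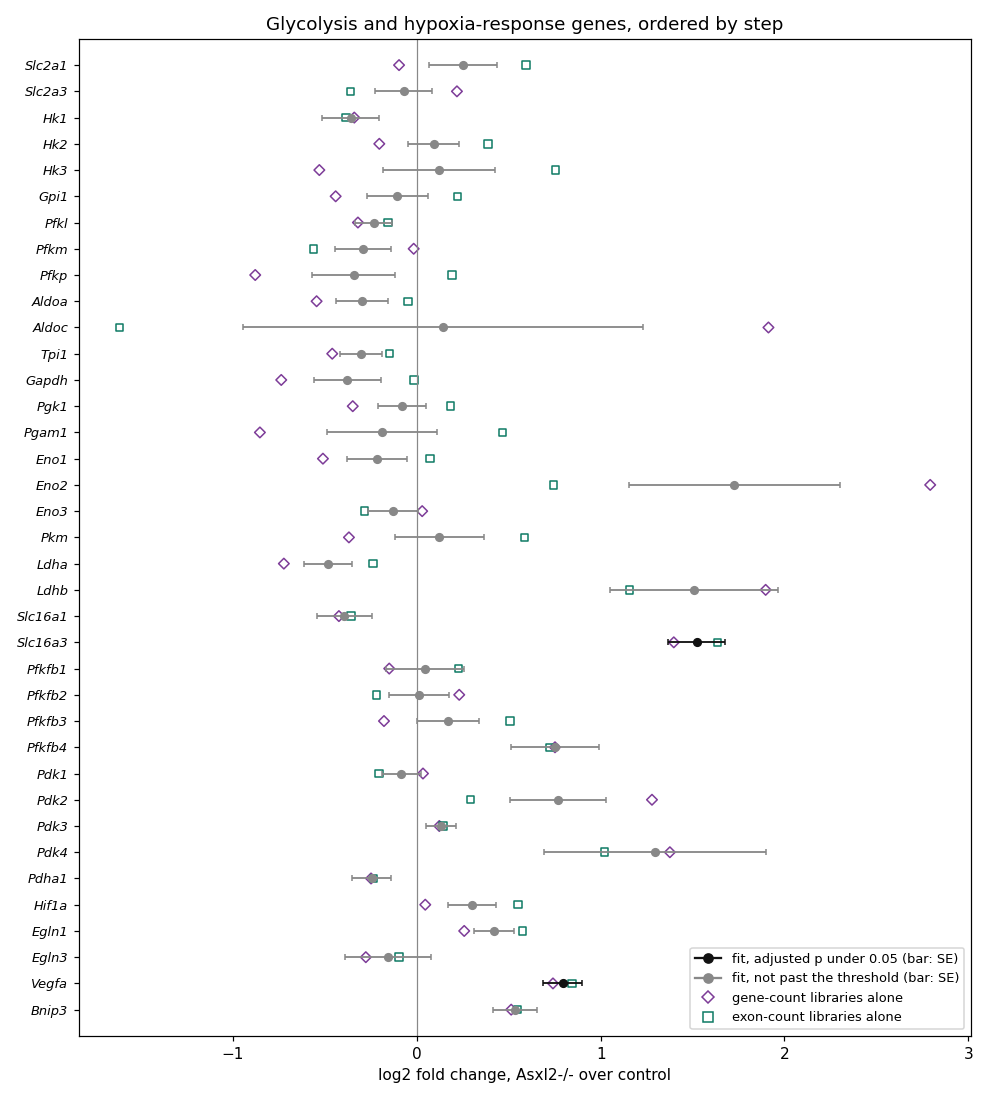
Log2 fold change of each of the 37 genes (Asxl2-/- over control, x axis) in the order of the pathway, with the fitted value and its SE as a filled point and bar and the values within each kind of file alone as open symbols. Slc16a3 and Vegfa (black) are past the adjusted threshold, and the glycolytic enzymes lie mostly left of 0 in the gene-count libraries (diamonds) and around 0 in the exon-count libraries (squares).

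Of the monocarboxylate transporters, Slc16a3 rose and Slc16a1 did not pass the threshold. Slc16a3 (NM_030696, chr11:120948484-120959000 on mm10, 6 exons) was at 21.1, 21.0 and 24.8 CPM in Asxl2-/- libraries 1, 2 and 3, against 6.01, 8.65 and 7.55 CPM in control libraries 1, 2 and 3. The lowest knockout library was more than 2 times the highest control library, and both kinds of file showed the difference (log2 fold change 1.40 in gene-count and 1.64 in exon-count libraries, no test). After removal of the file kind its level was 4.44 ± 0.14 log2 CPM in Asxl2-/- and 2.92 ± 0.18 in control cells (SD, n = 3 each), and the rise was 1.52 in log2 units (SE 0.155, edgeR quasi-likelihood test, adjusted p = 0.0178). The difference did not reach the threshold without Asxl2-/- replicate 1 (edgeR adjusted p = 0.0649), Asxl2-/- replicate 3 (0.0547) or control replicate 3 (0.0995). Over all genes these fits called 16, 96 and 9, in this order, against 331 in the main fit. The log2 fold change of Slc16a3 stayed between 1.41 and 1.64 over the 6 fits that left out a library.

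Slc16a1 (NM_009196, chr3:104638664-104658462), the widely expressed transporter MCT1 that carries lactate in either direction, had 153, 135 and 192 CPM in Asxl2-/- libraries 1, 2 and 3, against 150, 231 and 200 in control libraries 1, 2 and 3. The groups overlapped across kinds of file, though each knockout library was under the controls of its own kind. The log2 fold change of -0.39 (SE 0.149, adjusted p = 0.157 by edgeR) did not pass the threshold. Per kilobase of exon, the level of Slc16a1 was 4.10, 3.62 and 4.36 times that of Slc16a3 in Asxl2-/- libraries 1, 2 and 3, against 14.1, 15.0 and 14.9 times in control libraries 1, 2 and 3. In share terms Slc16a3 made up 18.6% to 21.7% of the pair in knockout and 6.25% to 6.63% in control libraries. This ratio is taken within a library, so scaling between libraries does not enter it. The groups did not overlap, but the ratio in part repeats the Slc16a3 values that gave the call.

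The exon-count libraries show where along the gene the Slc16a3 counts lay. The exons shared by all 3 listed transcripts (chr11:120955226-120959000) had 2.67 to 7.55 CPM per exon in Asxl2-/- replicate 2 and 0.710 to 2.99 in control replicates 1 and 3, a ratio of knockout to control mean between 3.12 and 3.36 for each. The first exon of the longest transcript (chr11:120948484-120948579) had 7 counts in each of the 3 libraries. The other first exon (chr11:120949067-120949150), which begins right after the upstream window printed above, had 21 counts in Asxl2-/- replicate 2 against 8 and 7 in control replicates 1 and 3. These are values of 1 knockout and 2 control libraries and were not tested.

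**Figure D2:**
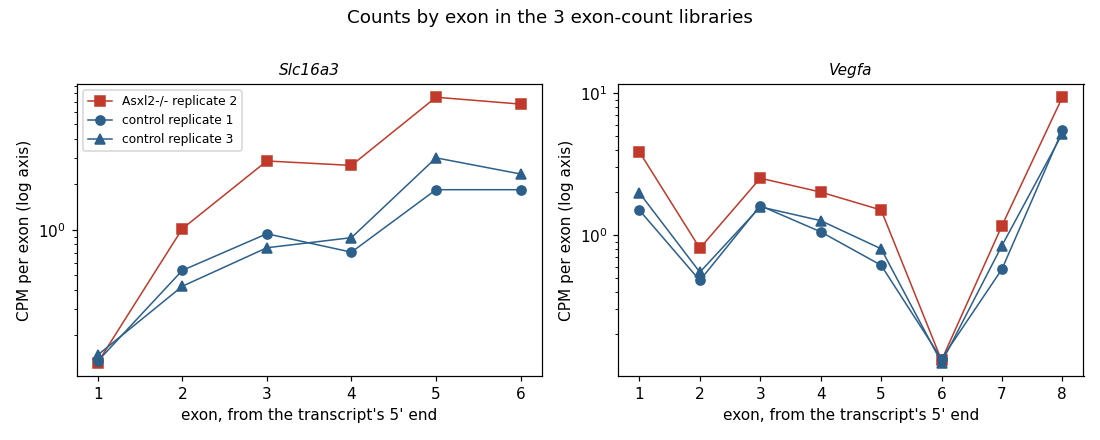
CPM per exon (log axis) of Slc16a3 and Vegfa in the 3 exon-count libraries, exons numbered from the 5′ end of the transcript. The Asxl2-/- line (red squares) lies above both control lines (blue) at all exons but the first of Slc16a3 and the 72-base exon of Vegfa, where all 3 libraries had 6 or 7 counts.

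Lactate dehydrogenase is a tetramer of LDHA and LDHB subunits, the first associated with lactate formation and the second with lactate use. Ldha (NM_001136069, chr7:46847082-46855627), second only to Gapdh in level per kilobase among the members, had 648, 889 and 643 CPM in Asxl2-/- libraries 1, 2 and 3, against 978, 1066 and 1127 in control libraries 1, 2 and 3. Every knockout library was below every control library. The log2 fold change was -0.48 (SE 0.132), and the edgeR adjusted p of 0.0957 did not pass the threshold. It was -0.72 in the gene-count and -0.24 in the exon-count libraries, and without 1 library the fit ran from -0.72 (Asxl2-/- replicate 2 left out) to -0.24 (control replicate 2 left out), with a call when control replicate 1 was left out (adjusted p = 0.0473).

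Ldhb (NM_008492, chr6:142490249-142507943), far less abundant, had 19.3, 13.3 and 9.55 CPM in Asxl2-/- libraries 1, 2 and 3, against 8.69, 3.61 and 4.07 in control libraries 1, 2 and 3. Every knockout library was above every control library, by a small margin for the nearest pair. Its log2 fold change was 1.51 with a large error (SE 0.458, adjusted p = 0.111 by edgeR), and it was called without control replicate 1 (adjusted p = 0.0496). Per kilobase, Ldha exceeded Ldhb 23.8, 47.4 and 47.8 times in the knockout and 79.9, 209.6 and 196.7 times in the control libraries, in replicate order, so the ratios did not overlap, while Ldha still held at least 95.97% of the pair in every library.

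**Figure D3:**
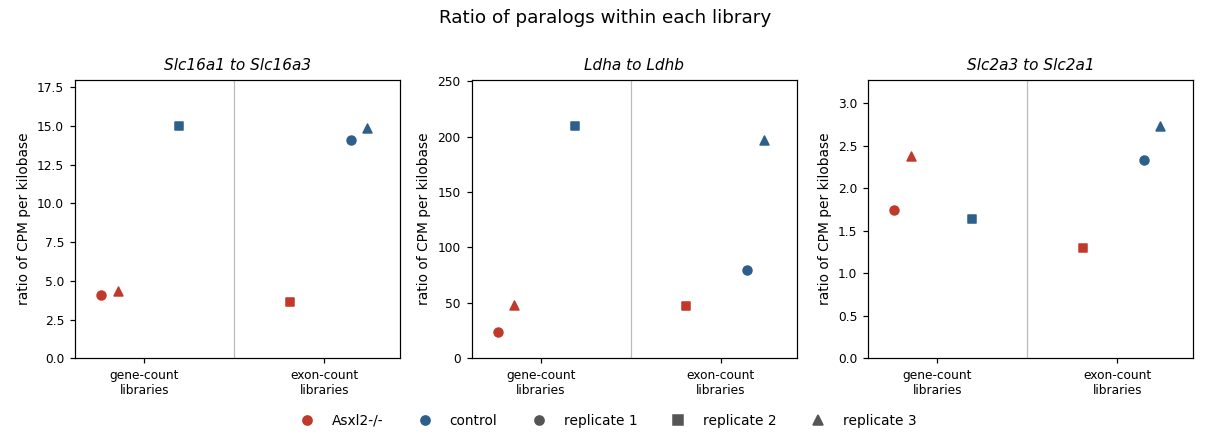
Ratio of CPM per kilobase between paralogs in each library (panels: Slc16a1 to Slc16a3, Ldha to Ldhb, Slc2a3 to Slc2a1), Asxl2-/- in red and control in blue, with gene-count and exon-count libraries set apart. The Slc16a1 to Slc16a3 ratio is 3.62 to 4.36 in all Asxl2-/- libraries and 14.1 to 15.0 in all control libraries.

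Of 7 such ratios, Eno1 to Eno2 also separated the groups (98.2 to 257.9 in knockout, 356.7 to 1201 in control libraries), whereas Slc2a3 to Slc2a1 (1.30 to 2.38 against 1.64 to 2.73), Hk1 to Hk2 (7.12 to 10.1 against 9.31 to 19.0), Pfkl to Pfkp (1.46 to 1.71 against 1.05 to 2.35) and Pdk1 to Pdk2 (2.53 to 3.15 against 3.11 to 6.83) overlapped. Each ratio that separated the groups holds a member with an unadjusted p under 0.05 in edgeR (Slc16a3, Ldhb or Eno2), and so in part repeats its values. How often ratios of other gene pairs separate was not counted. Repeated counting of spliced reads in exon-count libraries need not cancel in a ratio. No test was run on the ratios.

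Among the HIF genes, 4 of 5 had values above 0, against 7084 of all 14145 genes, with a median log2 fold change of 0.42. The threshold was passed by 1 of the 5, against 2.34% of all genes. The median was 0.26 without Asxl2-/- replicate 2 and in the gene-count libraries alone, and 4 of 5 were above 0 there too. Vegfa (NM_001025250, chr17:46016993-46032377, 8 exons) had 25.1, 21.3 and 24.5 CPM in Asxl2-/- libraries 1, 2 and 3, against 11.4, 14.8 and 12.3 in control libraries 1, 2 and 3. The groups did not overlap in either kind of file. Its level was 4.52 ± 0.034 log2 CPM in Asxl2-/- and 3.73 ± 0.062 in control cells (SD, n = 3 each), and the rise was 0.79 in log2 units (SE 0.106, adjusted p = 0.0279 by edgeR). Over the exons of the exon-count libraries, Asxl2-/- replicate 2 was 1.57 to 2.21 times the control mean, except at the 72-base exon chr17:46022277-46022348 with 6 or 7 counts in each. The call was lost in 5 of 6 fits that left out a library, with edgeR adjusted p = 0.126 without Asxl2-/- replicate 1, 0.0662 without Asxl2-/- replicate 2, 0.0749 without Asxl2-/- replicate 3, 0.0904 without control replicate 2 and 0.131 without control replicate 3. Over all genes these fits called 16, 659, 96, 124 and 9, in this order, against 331 in the main fit. The log2 fold change of Vegfa stayed between 0.74 and 0.85 over the 6 fits.

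Bnip3 (NM_009760, chr7:138890836-138909506), a HIF target of the outer mitochondrial membrane that promotes removal of mitochondria, had 14.2, 16.7 and 15.7 CPM in Asxl2-/- libraries 1, 2 and 3, against 11.8, 10.5 and 11.1 in control libraries 1, 2 and 3. The groups did not overlap, but the log2 fold change of 0.53 (SE 0.121, adjusted p = 0.074 by edgeR) was not past the threshold. Egln1 (NM_053207, chr8:124908587-124949254), the main oxygen-sensing prolyl hydroxylase, had 53.3, 43.8 and 47.9 CPM against 28.7, 42.2 and 30.1, in replicate order. Its knockout values were also all above the controls, with a log2 fold change of 0.42 (SE 0.109, adjusted p = 0.0892 by edgeR) that was 0.26 without Asxl2-/- replicate 2.

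Hif1a itself, the oxygen-regulated subunit, had 89.7, 93.7 and 79.9 CPM in Asxl2-/- libraries 1, 2 and 3, against 64.7, 82.0 and 63.3 in control libraries 1, 2 and 3. The groups overlapped, with a log2 fold change of 0.30 (SE 0.129, adjusted p = 0.193 by edgeR) that ran from 0.048 without Asxl2-/- replicate 2 to 0.55 without control replicate 2, and HIF1A is regulated mainly as a protein, which these data do not measure. Egln3, an inducible hydroxylase, was at 18.2 to 33.4 CPM in knockout and 22.6 to 29.9 in control libraries (log2 fold change -0.16, adjusted p = 0.698 by edgeR).

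**Figure D4:**
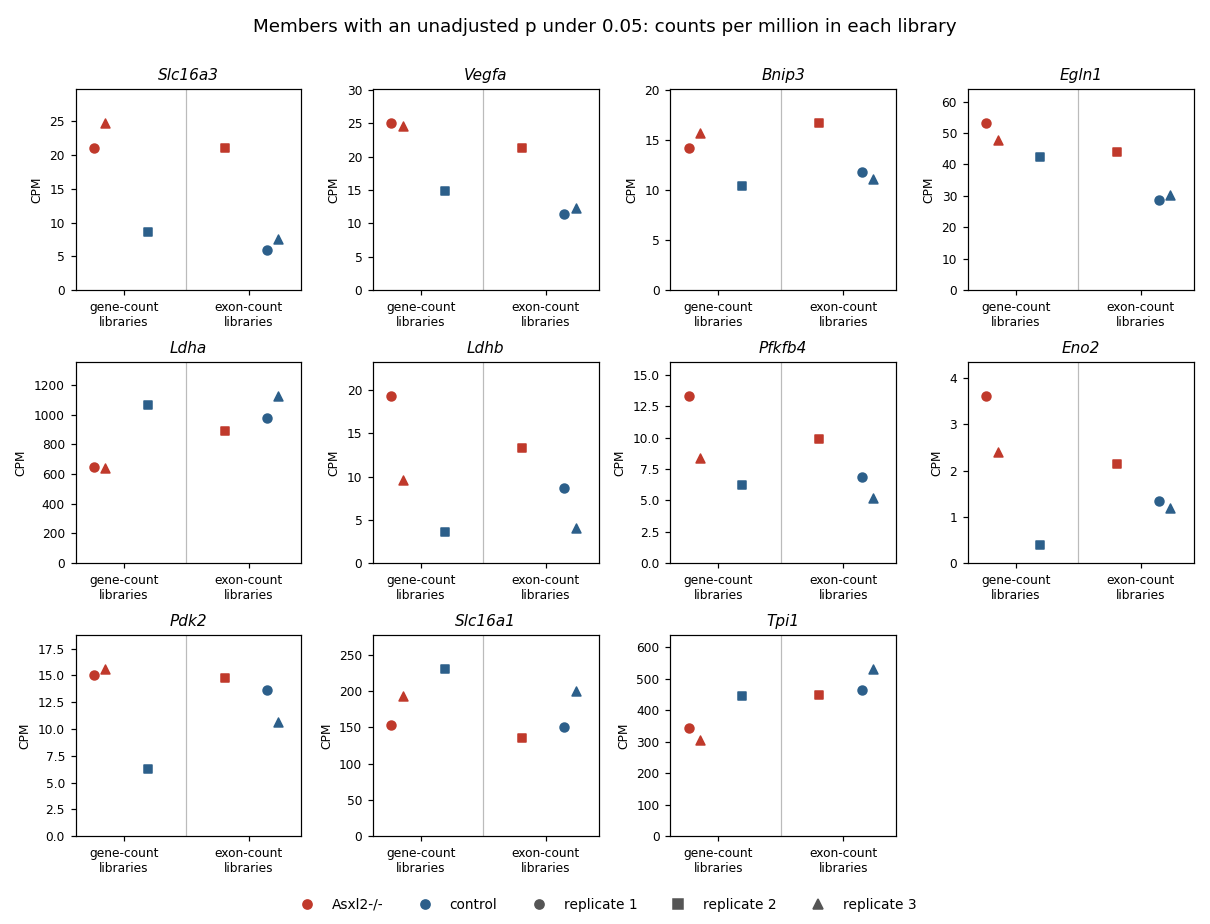
CPM in each of the 6 libraries for the 11 members with an unadjusted p under 0.05, with gene-count libraries left and exon-count libraries right of the line in each panel. Red marks Asxl2-/-, blue marks control, and the shape gives the replicate number. Slc16a3, Vegfa, Bnip3, Egln1, Ldhb, Pfkfb4, Eno2 and Pdk2 are higher and Ldha is lower in all Asxl2-/- libraries. The choice by p favours such separation, and its share over all genes was not counted. Within both kinds of file, 27.0% of the members lay above and 16.2% below the controls, against 25.4% and 23.3% of all genes.

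None of the 19 glycolytic enzymes, from hexokinase to lactate dehydrogenase, passed the threshold, which 2.34% of all genes passed. Of these enzymes, 13 had log2 fold changes below 0, against 7061 of all 14145 genes, and the median of the 19 was -0.19. Taking at each step the gene with the highest level per kilobase (Hk1, Gpi1, Pfkl, Aldoa, Tpi1, Gapdh, Pgk1, Pgam1, Eno1, Pkm and Ldha), 10 of 11 were below 0, with a median of -0.24. This rested on the gene-count libraries, where the median was -0.46 and all 11 were below 0, since in the exon-count libraries it was -0.016 with 6 below 0. The count was 9 of 11 with scaling by library size only, which moved the log2 fold changes of all genes up by a median of 0.098. It was 6 of 11 without control replicate 2, where Aldoa was at -0.049, Tpi1 at -0.15 and Gapdh at -0.018. Their summed CPM was 4403, 6347 and 3900 in Asxl2-/- libraries 1, 2 and 3, against 5840, 5948 and 6739 in control libraries 1, 2 and 3, so the groups overlapped. The sum of 9 neutrophil and monocyte markers (4704, 6825 and 2630 CPM against 2654, 8313 and 5098) and Hk3, a hexokinase of myeloid cells (275, 371 and 184 CPM against 190, 325 and 254), were likewise lower in knockout than in control among gene-count libraries, and in the exon-count libraries both were highest in the knockout. Mpo was the largest part of the marker sum (3031, 4732 and 1749 CPM against 1850, 5506 and 3628). The markers did not move together. Of the 9, 3 (Csf3r, S100a9 and Itgam) lay above the controls in both kinds of file and 0 below, against 25.4% and 23.3% of all genes. The part of these markers and of Hk3 in the enzyme values was not tested.

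**Figure D5:**
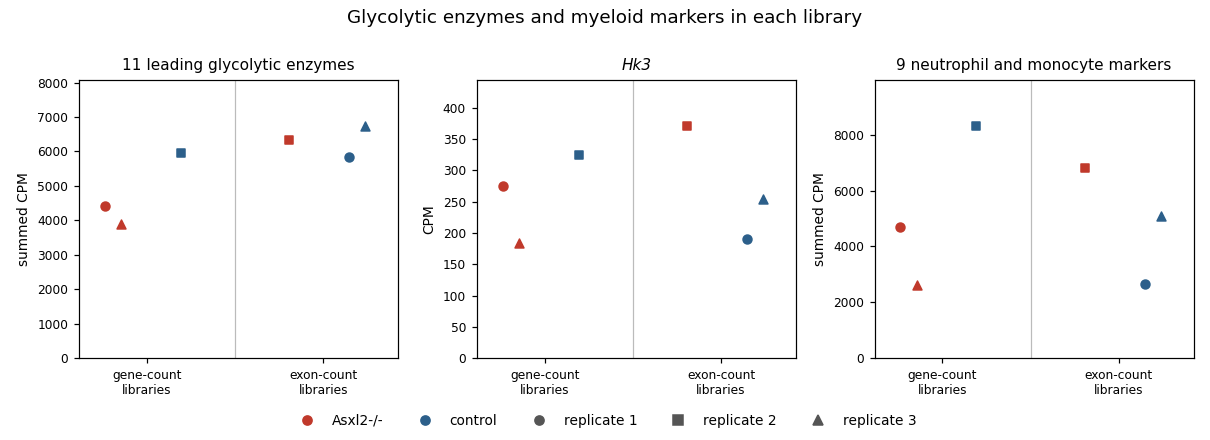
Summed CPM of the 11 leading glycolytic enzymes, CPM of Hk3 and summed CPM of 9 neutrophil and monocyte markers in each library, split by kind of file. In the gene-count libraries control replicate 2 (blue square) is the highest in all 3 panels, and in the exon-count libraries Asxl2-/- replicate 2 (red square) is highest for Hk3 and the markers and lies between the controls for the enzymes.

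Glucose entry and its trapping were examined in the same order as the pathway. Slc2a3, the high-affinity glucose transporter GLUT3 and the higher of both per kilobase, had 58.5, 52.5 and 68.5 CPM in Asxl2-/- libraries 1, 2 and 3, against 68.4, 54.4 and 66.5 in control libraries 1, 2 and 3 (log2 fold change -0.072, SE 0.155, adjusted p = 0.796 by edgeR). Slc2a1, the GLUT1 transporter, ran from 18.7 to 26.2 against 15.8 to 21.6 CPM (0.25, adjusted p = 0.401 by edgeR). Neither separated the groups.

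Hexokinases trap glucose as glucose phosphate. Per kilobase Hk1 was the highest in every library, with 47.2% to 68.9% of the hexokinase sum against 26.7% to 46.1% for Hk3. Hk1 had 364, 544 and 489 CPM in Asxl2-/- libraries 1, 2 and 3, against 634, 534 and 794 in control libraries 1, 2 and 3. It was lower than the controls of its own kind in each knockout library, with a log2 fold change of -0.36 (SE 0.155, adjusted p = 0.195 by edgeR). Hk2, the inducible form, and Hk3 gave 0.09 and 0.12 (adjusted p = 0.697 and 0.829 by edgeR), and both had opposite signs in the kinds of file (-0.20 and 0.39 for Hk2, -0.53 and 0.75 for Hk3, gene-count first).

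Gpi1, the isomerase that follows, had 612, 1068 and 509 CPM in Asxl2-/- libraries 1, 2 and 3, against 875, 758 and 959.5 in control libraries 1, 2 and 3, a log2 fold change of -0.11 (SE 0.166, adjusted p = 0.707 by edgeR). The highest and the lowest values were both from knockout libraries. Phosphofructokinase is the committed step, and its liver-type subunit Pfkl had 141, 217 and 117 CPM against 240, 160 and 245 in replicate order (-0.24, SE 0.102, adjusted p = 0.196 by edgeR). The muscle-type Pfkm and platelet-type Pfkp were at -0.29 and -0.34 (adjusted p = 0.257 and 0.358 by edgeR), and none of the 3 subunits passed. Pfkp was at -0.88 in the gene-count and 0.19 in the exon-count libraries, and Pfkm at -0.017 and -0.56, so neither held its size across the kinds of file, and Pfkp turned to 0.19 without control replicate 2 and was called without Asxl2-/- replicate 2 (adjusted p = 0.0320).

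Aldoa, the main aldolase, which splits the phosphorylated hexose, had 405, 608 and 378 CPM in Asxl2-/- libraries 1, 2 and 3, against 570.0, 571 and 692 in control libraries 1, 2 and 3 (log2 fold change -0.30, SE 0.143, adjusted p = 0.227 by edgeR). Its brain-type paralog Aldoc varied within both groups, from 5.52 to 27.9 and from 4.76 to 22.5 CPM, and the fit gave 0.14 with an SE of 1.09. Tpi1, which interconverts the triose phosphates, had 342, 448 and 305 CPM against 463, 444 and 532, and its log2 fold change of -0.30 (SE 0.116, adjusted p = 0.16 by edgeR) had an unadjusted p of 0.0381. Asxl2-/- replicate 2 lay above the lowest control for both Aldoa and Tpi1.

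Gapdh, the redox step and the member with the highest level (mean 505 CPM per kilobase in gene-count libraries), had 630, 1047 and 547 CPM in Asxl2-/- libraries 1, 2 and 3, against 954, 979 and 1174 in control libraries 1, 2 and 3. Its log2 fold change was -0.38 (SE 0.181, adjusted p = 0.228 by edgeR), made of -0.74 in the gene-count and -0.016 in the exon-count libraries. Pgk1, the X-linked kinase that makes the first ATP of the pathway, had 128, 191 and 117 CPM in Asxl2-/- libraries 1, 2 and 3, against 167, 156 and 168 in control libraries 1, 2 and 3 (-0.08, SE 0.13, adjusted p = 0.72 by edgeR). Pgam1, the mutase, had 53.8, 65.3 and 38.6 CPM against 41.3, 82.5 and 54.2 (-0.19, SE 0.299, adjusted p = 0.717 by edgeR). All 3 overlapped between the groups.

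Eno1, the main enolase, had 240, 373 and 197 CPM in Asxl2-/- libraries 1, 2 and 3, against 323, 310 and 389 in control libraries 1, 2 and 3, with a log2 fold change of -0.22 (SE 0.164, adjusted p = 0.416 by edgeR). These values are uncertain, since 92.8% of its exon bases are shared with the listed copy Eno1b. Eno2, the neuronal enolase, had 102, 114 and 68 counts in Asxl2-/- libraries 1, 2 and 3, against 70, 11 and 56 in control libraries 1, 2 and 3, or 3.62, 2.14 and 2.40 CPM against 1.34, 0.382 and 1.18. Every knockout library was higher in CPM, and the log2 fold change of 1.73 (SE 0.573, adjusted p = 0.128 by edgeR) did not pass the threshold. That value ranged from 0.76 without control replicate 2 to 2.97 without Asxl2-/- replicate 2, where it was called (adjusted p = 0.0378). Eno3, the muscle enolase, gave -0.13 (adjusted p = 0.555 by edgeR).

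Pkm, pyruvate kinase, had 841, 899 and 560 CPM in Asxl2-/- libraries 1, 2 and 3, against 595, 887 and 604 in control libraries 1, 2 and 3 (log2 fold change 0.12, SE 0.24, adjusted p = 0.775 by edgeR). It was the member of the leading enzymes with a value above 0, and it changed sign between the kinds of file (-0.37 gene-count, 0.58 exon-count). Its alternative exons decide between the M1 enzyme of muscle and the M2 enzyme typical of dividing cells. They are printed because the exon-count libraries tell them apart. Both have 167 bases, M1 at chr9:59675029-59675195 and M2 at chr9:59675568-59675734 on mm10, plus strand, and are identical at 61.7% of positions, with capitals at the bases that differ.
Pkm M1 exon: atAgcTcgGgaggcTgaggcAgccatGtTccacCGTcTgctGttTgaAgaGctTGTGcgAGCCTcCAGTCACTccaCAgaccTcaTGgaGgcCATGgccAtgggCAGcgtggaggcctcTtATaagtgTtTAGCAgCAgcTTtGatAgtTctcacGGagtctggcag
Pkm M2 exon: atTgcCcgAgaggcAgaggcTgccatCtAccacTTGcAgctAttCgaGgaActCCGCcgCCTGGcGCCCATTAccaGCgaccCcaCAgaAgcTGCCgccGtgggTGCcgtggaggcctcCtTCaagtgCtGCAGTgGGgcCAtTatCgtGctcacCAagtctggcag
The M1 exon took 10.9% of the counts on both exons in Asxl2-/- replicate 2 (336 of 3090, 95% Wilson interval 9.82 to 12.02), 10.3% in control replicate 1 (211 of 2042, 9.09 to 11.7) and 9.08% in control replicate 3 (166 of 1829, 7.84 to 10.5). The intervals overlapped, and M2 was the main form in all 3 libraries.

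PFKFB enzymes set the level of the fructose bisphosphate that activates phosphofructokinase, and 4 of 4 had fitted values above 0, although Pfkfb1 and Pfkfb2 were just below 0 under several alternatives, among them DESeq2 and median-ratio scaling. Pfkfb4, a HIF-inducible form, had 13.3, 9.88 and 8.36 CPM in Asxl2-/- libraries 1, 2 and 3, against 6.87, 6.25 and 5.19 in control libraries 1, 2 and 3. The groups did not overlap, and the difference was alike in gene-count and exon-count libraries (0.75 and 0.72), yet the log2 fold change of 0.75 (SE 0.239, adjusted p = 0.12 by edgeR) did not pass. Pfkfb3, the highest per kilobase, had 91.4, 86.6 and 73.5 CPM against 59.8, 92.8 and 62.0 (0.17, SE 0.169, adjusted p = 0.543 by edgeR). Pfkfb1 and Pfkfb2 were at 0.045 and 0.012 (adjusted p = 0.913 and 0.971 by edgeR).

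Pyruvate dehydrogenase kinases inactivate the complex by phosphorylation. Pdk3, the highest per kilobase, had 84.3, 112 and 88.1 CPM in Asxl2-/- libraries 1, 2 and 3, against 96.7, 79.2 and 107 in control libraries 1, 2 and 3 (log2 fold change 0.13, SE 0.0819, adjusted p = 0.334 by edgeR). Pdk2 had 15.0, 14.8 and 15.6 CPM against 13.6, 6.29 and 10.7, with all knockout libraries above all controls (0.77, SE 0.261, adjusted p = 0.133 by edgeR). The knockout values of Pdk2 were close together and the controls spread, and the log2 fold change was 1.28 in the gene-count against 0.29 in the exon-count libraries, with 0.28 without control replicate 2 and 1.29 without Asxl2-/- replicate 2, where it was called (adjusted p = 0.0386). Pdk1, a HIF target, was at -0.084 (adjusted p = 0.631 by edgeR), and Pdk4, the starvation-induced form, had only 2 to 29 counts per library and the lowest level of all members (1.30, SE 0.605, adjusted p = 0.22 by edgeR).

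Pdha1, the catalytic subunit that these kinases act on, had 206, 210 and 221 CPM in Asxl2-/- libraries 1, 2 and 3, against 225, 254 and 274 in control libraries 1, 2 and 3. Every knockout library was below every control library by a small margin, and the log2 fold change of -0.25 (SE 0.106, adjusted p = 0.194 by edgeR) did not pass. Of its exon bases 21.8% are shared with Map3k15, and the libraries carry no strand. Together with Pgk1, Pdk3 and Pfkfb1 it is X-linked, and none of these 4 passed the threshold.

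The neighbouring pathways gave no call in edgeR. In 7 further lists 0 of 89 genes tested passed the threshold, against 2.34% of all genes. At an unadjusted p under 0.05 there were 31 (34.8%, against 27.7% of all genes), and DESeq2 called 15 (16.9%, 3 raised and 12 lowered), against 15.5% of all genes. The TCA cycle, which oxidises the acetyl group made from pyruvate, had the most even direction: 18 of 20 genes were below 0, with a median log2 fold change of -0.24, and 10 had an unadjusted p under 0.05, all lower, against 12.6% of all genes. In 14 of the 20 the knockout libraries were below the controls in both kinds of file, against 23.3% of all genes. Its smallest p-values were those of Mdh2, mitochondrial malate dehydrogenase (-0.42, adjusted p = 0.0811 by edgeR), and Cs, citrate synthase (-0.49, 0.0974). With scaling by library size only, 15 of 20 were below 0, and the median was -0.13 without control replicate 2 and in the exon-count libraries alone.

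Pyruvate import and the pyruvate dehydrogenase complex had 6 of 9 genes below 0, led by its subunits Pdhb (-0.32, adjusted p = 0.0983 by edgeR) and Dlat (-0.38, 0.103). The pentose phosphate pathway, which makes NADPH, had 8 of 10 below 0, led by its entry enzyme G6pdx, also X-linked (-0.59, adjusted p = 0.131 by edgeR), and by transketolase Tkt (-0.34, 0.135). Genes of gluconeogenesis, the reverse route, were split 2 to 2, with Pcx, pyruvate carboxylase, at 0.53 and Fbp1, fructose bisphosphatase, at 1.07 (adjusted p = 0.122 and 0.138 by edgeR).

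Other genes known to be induced by hypoxia were split, with 10 of 18 above 0, and 5 higher and 2 lower at an unadjusted p under 0.05, against 15.0% and 12.6% of all genes. Their median log2 fold change of 0.093 had no stable sign: it was -0.042 without Asxl2-/- replicate 1, -0.060 without the file kind covariate, -0.061 from the longest exon, 0.0014 without control replicate 2, 0.028 without control replicate 3, 0.053 without Asxl2-/- replicate 3, 0.20 without Asxl2-/- replicate 2 and 0.18 without control replicate 1. Mxi1, a MYC antagonist (0.36, adjusted p = 0.0758 by edgeR), and Car9, a membrane carbonic anhydrase (0.54, 0.101), had the smallest p-values. Among regulators of HIF, 10 of 14 were below 0, including Hif3a, a HIF subunit that can restrain the others (-1.35, adjusted p = 0.139 by edgeR), and Tceb2, elongin B of the VHL ubiquitin ligase (-0.22, 0.166). Further paralogs of the glycolytic enzymes and transporters were split 7 to 7, with Pgam5, a mitochondrial phosphatase, at -0.40 and Slc2a9, a urate transporter of the glucose transporter family, at 0.53 (adjusted p = 0.0811 and 0.102 by edgeR). With scaling by library size only, 7 of 10 pentose phosphate genes, 8 of 14 HIF regulators and 0 of 4 gluconeogenesis genes were below 0. That scaling moved the log2 fold changes of all genes up by a median of 0.098.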

How the data were processed

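RNA was measured by poly(A)-selected, unstranded sequencing of LSK cells from 3 Asxl2-/- and 3 control mice, stated to be biological replicates. The values deposited by the authors were raw counts of reads on mm10 with RefSeq transcripts. The submitters' processing notes name STAR, featureCounts and DESeq2 without versions or roles. The labels and the methods name different sequencers. Replicates were not pooled. The files came as 1 count per transcript (33068 lines) or per exon of each transcript (317548 lines), 3 libraries each. Isoforms share reads, so each of the 24063 symbols was represented by the transcript with the longest summed exon length, with exon counts summed. A read over a junction can enter such a sum repeatedly.

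The test was edgeR's quasi-likelihood F test on the counts (edgeR 4.0.16, R 4.3.3, TMM scaling, filterByExpr, file kind plus group, 3 residual degrees of freedom), two-sided, with Benjamini-Hochberg adjustment over all 14145 genes tested and a threshold of 0.05. The study's own Cuffdiff test needs aligned reads and was not used. Each SE was obtained by dividing the absolute fold change by the square root of F. CPM uses TMM-scaled library sizes, and log2 CPM means and SDs have the fitted file kind removed, which makes these SDs somewhat too small. Levels of different genes were compared as CPM per kilobase of exon. Figures used matplotlib 3.10.9. Wilson intervals (95%) cover counting error only, since reads without molecular identifiers are not independent molecules. Tested on simulated counts of the same 14145 genes, the fit recovered 76% of genes changed by 1 and 98% of genes changed by 2 on the log2 scale, and 6.95% of calls were false. The changed genes were drawn only from those with higher counts, and the simulated spread followed the fitted trend without scatter between genes. These rates therefore do not carry over to members with few counts or a large SE. No libraries of a group agreed within sampling noise (lowest chi-square per degree of freedom 25.5).

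The members, the other gene lists and the marker lists were chosen with earlier results of these data known. Values in every library are given for members past the threshold, with an unadjusted p under 0.05, or with the highest level of their step, the rest by range, fold change or adjusted p, and the 2 genes of smallest p from each other list. The alternatives were DESeq2 1.42.0, limma-voom (limma 3.58.1), scaling by median ratios or by library size only, dropping the low-count filter or asking for 10 or more counts in all libraries, no file kind, a replicate block with and without file kind, the transcript with the highest count, the longest exon instead of the sum over exons, removal of the length trend, each file kind alone, and leaving out each library. Pkm exon sequences came from GENCODE vM1 transcripts, matched by exon length and spacing to the deposited mm10 exons.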

Additional observations from a re-analysis of the deposited data

How the results depend on the processing

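The count of members past the threshold was 2 (Slc16a3 and Vegfa) and stayed 2 under the other alternatives, with these exceptions. DESeq2 called 8 (21.6%, 7 raised, 1 lowered, against 15.5% of 14466 genes), adding Bnip3, Eno2, Ldha, Ldhb, Pdk2 and Pfkfb4. The replicate block beside the file kind, which leaves 1 residual degree of freedom, gave 19 (51.4%, 9 raised, 10 lowered, against 36.6% of all genes), and a block with no file kind term gave 2, Slc16a3 and Ldhb, with Vegfa at 0.88 and an adjusted p of 0.0976. Leaving out 1 library gave 0 to 4 members: 0 without Asxl2-/- replicate 1, Asxl2-/- replicate 3 or control replicate 3, and 4 without Asxl2-/- replicate 2 or control replicate 1. Over all genes, the fits with 0 members called 16, 96 and 9, in this order. The fits with 4, which hold the calls of Ldha, Ldhb, Eno2, Pdk2 and Pfkp given above, called 659 and 1312. These fits tested 14060 to 14748 genes. The numbers were not taken as pairing the libraries, but whether they do could not be decided. Same-numbered deviations correlated at 0.29, -0.0077 and -0.0028 in replicates 1, 2 and 3, and 2 of 6 libraries correlated best with their own number. The libraries that share a number were of different kinds of file, so the file kind enters these values with opposite sign and lowers them. With the file kind removed the correlations were 0.64, 1 and 0.39, all over 0.1. In this layout that removal leaves the same residual in both libraries numbered 2, which forces the value of 1, and it also ties the other residuals together. Neither set can show or exclude a pairing, so the counts with a replicate block are given beside the main ones. Over all genes, 331 were called, against 2244 with DESeq2, 161 with library size only, 5179 with the replicate block beside the file kind and 9 to 1312 without 1 library. In the 7 other lists, 0 were called, against 15 with DESeq2, 42 with the replicate block beside the file kind, 1 (Pklr) with the block without it and 0 to 12 without 1 library. Each kind of file alone gave values and no calls. The cause of these differences was not tested.

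Several log2 fold changes changed sign. With library size only, Slc2a3 was at 0.025, Pgk1 at 0.017 and Pdk1 at 0.014, under a median upward shift of 0.098 over all genes. With the length trend removed, Hk2 was at -0.041 and Pfkfb2 at -0.13, and with limma-voom Aldoc was at -0.33 and Pfkfb2 at -0.0077. Pfkfb1 was at -0.00186 by DESeq2, -0.00295 by median-ratio scaling, -0.028 without the file kind and -0.048 with the block without file kind. For Pfkfb2 the value was -0.039 by DESeq2, -0.034 by median-ratio scaling and -0.00937 from the longest exon. Without 1 library, these ranges crossed 0: Slc2a1 -0.093 to 0.59, Slc2a3 -0.36 to 0.22, Hk2 -0.20 to 0.39, Hk3 -0.50 to 0.75, Gpi1 -0.44 to 0.22, Pfkp -0.88 to 0.19, Aldoc -1.68 to 2.06, Pgk1 -0.35 to 0.19, Pgam1 -0.84 to 0.46, Eno1 -0.50 to 0.071, Eno3 -0.28 to 0.030, Pkm -0.34 to 0.59, Pfkfb1 -0.15 to 0.23, Pfkfb2 -0.22 to 0.24, Pfkfb3 -0.17 to 0.51 and Pdk1 -0.20 to 0.037. Depth limited Pdk4, with 2 to 29 counts, and Eno2, with 11 in one control library.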
